A study of Mus musculus with 2 samples.

Results

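Cluster 1 is one of the fibroblast groups that the authors' annotation distinguishes in the mouse esophagus. Its members are the cells whose cluster number in that annotation is 1, and they number 732 of the 4853 cells in the data. The Keap1 cKO library held 187 of them and the control library held 545. The Keap1 cKO library came from K5CreERT2::Keap1 floxB/floxB esophagus and the control library from Keap1 floxB/floxB esophagus, both of a hybrid background of C57BL/6J and BALB/c. Both genotypes carry the floxed Keap1 alleles, so they differ by the Cre transgene, a tamoxifen-inducible recombinase driven by the keratin 5 promoter. The muscle layer had been removed before dissociation, and single cells were profiled with droplet 3′ RNA sequencing. There was 1 library per genotype, so no test of genotype was possible, and genotype cannot be told apart from any other difference between the libraries. The intervals given are exact 95% intervals that cover counting error only.

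Fibroblasts make and remodel the connective tissue beneath the esophageal epithelium. They secrete collagen precursors that are trimmed, assembled into fibrils and cross-linked by lysyl oxidases, and they deposit elastin on a scaffold of fibrillin microfibrils. They also release Wnt antagonists, growth factors, complement proteins and chemokines. KEAP1 is the adaptor through which cells keep NRF2, the transcription factor encoded by Nfe2l2, at a low level. Keratin 5 marks basal keratinocytes and is not a fibroblast gene, so a comparison of genotypes in cluster 1 concerns cells in which the promoter of the Cre transgene is not known to act.

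Unique molecular identifiers (UMIs, counts of captured RNA molecules) summed to 2853139 over Keap1 cKO cells and 6634398 over control cells of cluster 1. The median cell had 14798.0 UMIs and 3956 genes in the Keap1 cKO library, against 11930.0 UMIs and 3580 genes in the control library. Over all cells of a library the order of depth was the opposite, with medians of 8193.0 UMIs per Keap1 cKO cell and 11293.5 per control cell. Cluster 1 made up 187 of the 2381 Keap1 cKO cells (6.80% to 9.01%) and 545 of the 2472 control cells (20.4% to 23.7%). Of the cells numbered 1 or 5, the 2 fibroblast clusters of comparable depth, cluster 1 held 59.7% (54.1 to 65.2) of 313 in the Keap1 cKO library and 66.8% (63.4 to 70.0) of 816 in the control library. These shares describe the composition of the data and no difference is read from them, since genes that define the cluster differed between the libraries. Of the 5 cell barcodes found in both libraries, 0 lay in cluster 1.

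The cluster is labelled here by Inmt and Cilp, and all 6 of its marker genes were higher in cluster 1 than in cluster 5 in both libraries. Levels are given as CPM, the UMIs of a gene per 1000000 UMIs summed over the cells of a cluster in a library. In the Keap1 cKO library the 2 genes of the label, Inmt and Cilp, had 48.7 and 264.3 CPM in cluster 1 against 0.885 and 13.7 CPM in cluster 5. In the control library they had 514.4 and 237.4 CPM in cluster 1 against 27.7 and 16.1 CPM in cluster 5. Inmt encodes indolethylamine N-methyltransferase, which methylates small amines, and Cilp encodes cartilage intermediate layer protein, a secreted matrix protein. The ratio of cluster 1 over cluster 5, on the log2 scale, was 5.78 for Inmt and 4.27 for Cilp in the Keap1 cKO library, and 4.21 and 3.88 in the control library. Because the authors' clusters were made from these same values, every contrast of cluster 1 with cluster 5 is a description and no test.

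The remaining markers followed the same order. Mfap4, a microfibril-associated glycoprotein of elastic fibres, had 391.8 CPM in cluster 1 and 130.1 CPM in cluster 5 of the Keap1 cKO library, and 217.7 and 14.8 CPM in the control library. Sfrp4, a secreted Wnt antagonist, had 286.4 and 81.0 CPM in clusters 1 and 5 of the Keap1 cKO library and 625.2 and 212.4 CPM in the control library. Angptl1, a secreted angiopoietin-like protein, had 60.6 and 10.2 CPM in the Keap1 cKO library and 160.2 and 52.3 CPM in the control library, in the same cluster order. Fibin, a secreted protein named for fin bud initiation in zebrafish, had 120.6 and 44.2 CPM in the Keap1 cKO library and 203.5 and 64.7 CPM in the control library. The median log2 ratio of the 6 markers, cluster 1 over cluster 5, was 2.20 in the Keap1 cKO library and 2.77 in the control library, beside 0.03 and 0.00 over the 10315 genes compared. A further group that the authors annotated as fibroblasts, cluster 6, held shallow cells with medians of 772.0 UMIs in the Keap1 cKO library and 1207.0 in the control library. Its Inmt level was 6.70 CPM in the Keap1 cKO library and 147.8 CPM in the control library.

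**Figure D1:**
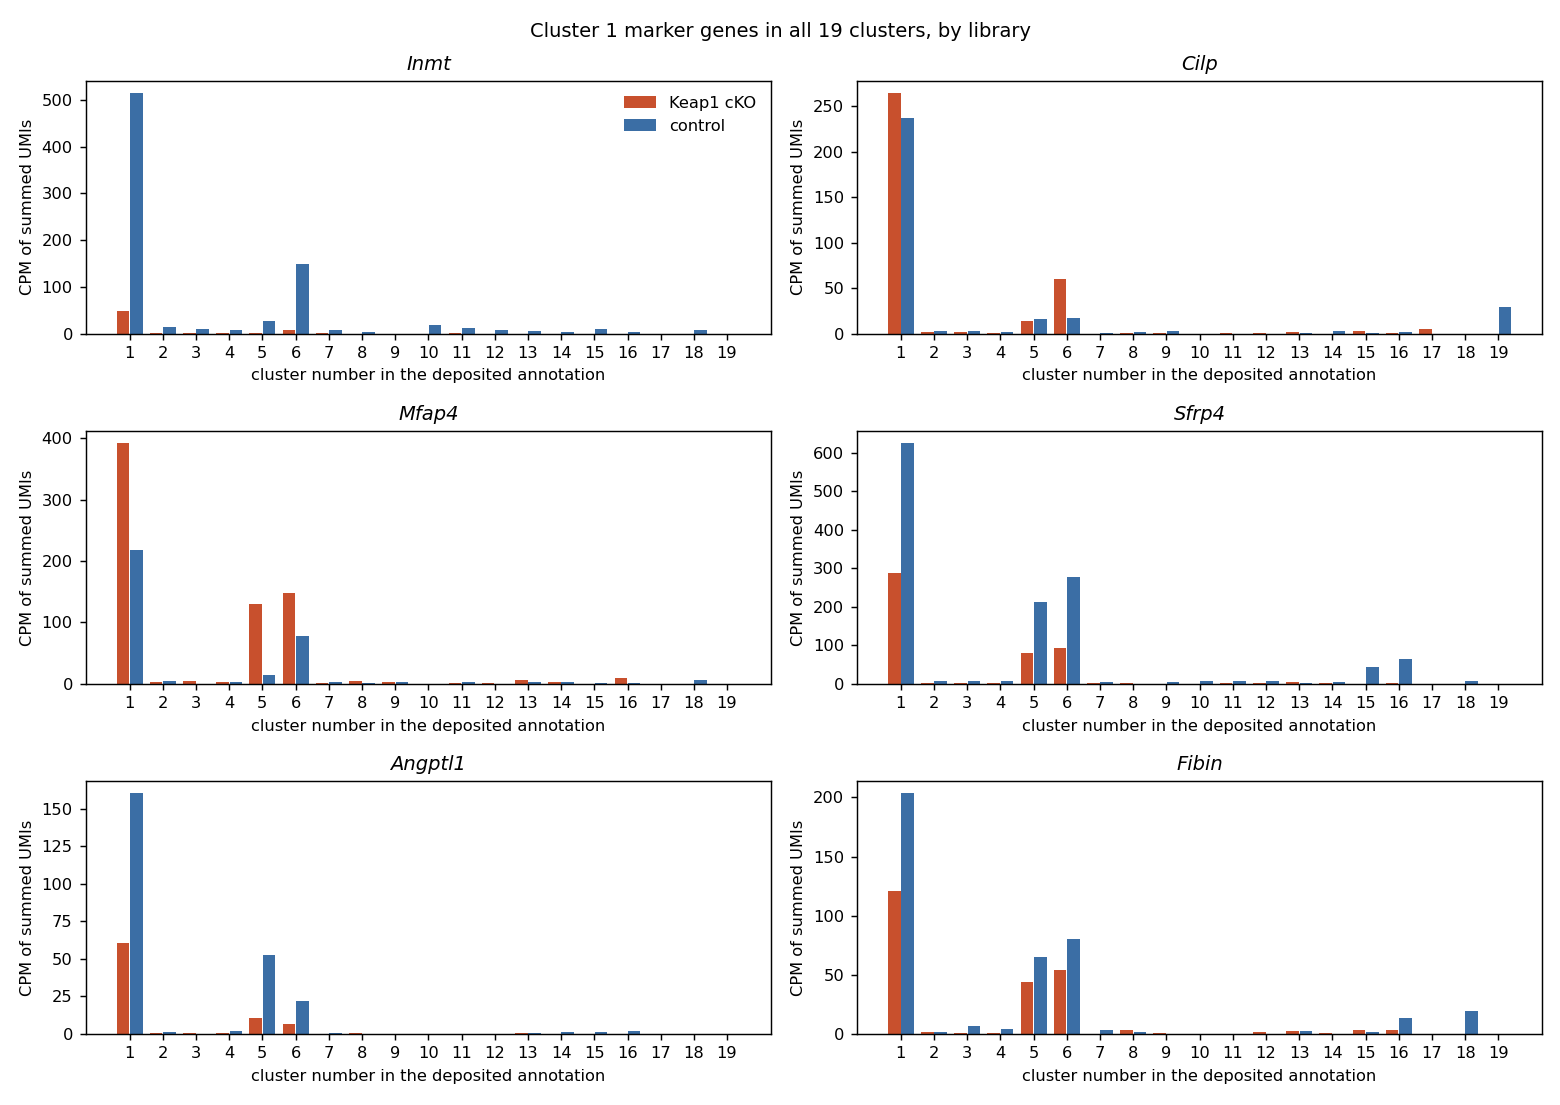
CPM of the 6 marker genes in each of the 19 clusters, with the Keap1 cKO library as the left bar and the control library as the right bar of each pair; each bar is the level of summed UMIs in 1 library. Cluster 1 has the tallest bar for all 6 genes, and for Inmt it is the control bar at 514.4 CPM against 48.7 CPM in the Keap1 cKO library.

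The RefSeq sequences upstream of the 2 genes of the label are shown because these genes name the cluster. Between the libraries Inmt had a log2 ratio of -3.40, Keap1 cKO over control, while Cilp was at a similar level with 0.15. Inmt lies on the minus strand of chromosome 6 (55170626 to 55175043, mm10, protein coding), and the 197 bases at chr6:55175044-55175240 (GRCm38.p6, minus strand) lie directly before this GENCODE gene. The RefSeq start lies 53 bases farther downstream, and those bases are not printed because they fall in a GENCODE exon. Cilp lies on the plus strand of chromosome 9 (65265180 to 65280605, protein coding), and the 250 bases at chr9:65264930-65265179 (plus strand) precede its RefSeq and GENCODE start. Both are printed 5′ to 3′, with TATAAA, the core of the TATA box, in capitals.
Inmt: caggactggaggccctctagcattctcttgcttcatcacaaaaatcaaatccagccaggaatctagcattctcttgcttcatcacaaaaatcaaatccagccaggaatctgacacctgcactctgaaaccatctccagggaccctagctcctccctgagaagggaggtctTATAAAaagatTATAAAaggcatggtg
Cilp: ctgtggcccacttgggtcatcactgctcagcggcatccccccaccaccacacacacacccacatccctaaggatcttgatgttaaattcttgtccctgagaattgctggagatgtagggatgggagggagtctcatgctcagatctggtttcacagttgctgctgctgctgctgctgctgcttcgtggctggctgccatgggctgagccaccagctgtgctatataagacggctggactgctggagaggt
The Inmt sequence holds TATAAA 2 times, from 80 to 75 and from 69 to 64 bases before the RefSeq start, and a direct repeat of 46 bases whose copies begin at bases 16 and 62 of the printed run. TATAAA occurs on either strand in 12.3% of 32536 RefSeq windows of 250 bases. The Cilp sequence held no match to the 5 motifs searched, which says only that these letters are not in this window.

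The markers were not shared evenly by the cells. To set depth aside, each cell was thinned at random to 9000 UMIs, which kept 153 Keap1 cKO and 442 control cells of cluster 1 and left out 34 shallower Keap1 cKO and 103 control cells. A UMI of Inmt was then found in 14.4% (9.24 to 21.0) of Keap1 cKO cells and 68.6% (64.0 to 72.9) of control cells, and without thinning in 17.6% of Keap1 cKO and 73.4% of control cells. In red cells, which should lack the gene and show the background from free RNA, Inmt was seen in 1.10% of Keap1 cKO cells and 4.58% of control cells at the same depth. Cilp was found in 30.7% (23.5 to 38.7) of Keap1 cKO cells and 25.8% (21.8 to 30.1) of control cells, with 0 of 91 Keap1 cKO and 1 of 153 control red cells. Cilp UMIs were therefore held by a minority of the cluster in both libraries. Inmt and Cilp were seen together in 8 Keap1 cKO and 71 control cells, Inmt without Cilp in 14 Keap1 cKO and 232 control cells, Cilp without Inmt in 39 Keap1 cKO and 43 control cells, and neither in 92 Keap1 cKO and 96 control cells. At least 2 of the 6 markers were seen in 78.4% of the Keap1 cKO cells and 89.8% of the control cells of cluster 1, and none in 8 Keap1 cKO cells and 1 control cell. In cluster 5 at least 2 markers were seen in 39.3% of 112 Keap1 cKO cells and 45.7% of 247 control cells.

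Beyond its markers, cluster 1 had higher levels than cluster 5 of Mgp, Igf1, Cygb and of the collagens Col15a1 and Col4a5, and lower levels of Dact2, Bmp6 and Ccl7. Genes with 100 or more UMIs over the pair of clusters in each library numbered 6007, of which 53 (0.882%) were at least 2-fold higher in cluster 1 in both libraries and 16 (0.266%) at least 2-fold lower. Among the highest after Inmt and Cilp was Epyc, a small leucine-rich proteoglycan known from cartilage, with 62.4 CPM in cluster 1 and 7.96 CPM in cluster 5 of the Keap1 cKO library, and 34.7 and 3.70 CPM in the control library. Col15a1, a collagen of the basement membrane zone, had 52.6 and 7.96 CPM in the Keap1 cKO library and 40.5 and 2.64 CPM in the control library. Mgp, an inhibitor of calcification, was the most abundant of these genes, with 1452.4 and 110.6 CPM in clusters 1 and 5 of the Keap1 cKO library and 1752.2 and 380.9 CPM in the control library. At equal depth Epyc was seen in 11.1% of Keap1 cKO and 7.92% of control cells of cluster 1. Col15a1 was seen in 16.3% of Keap1 cKO and 18.3% of control cells, and Mgp in 81.0% and 95.2%. Igf1, insulin-like growth factor 1, had 175.6 and 31.9 CPM in the Keap1 cKO library and 205.7 and 46.5 CPM in the control library. Cygb, the oxygen-binding cytoglobin of fibroblasts, had 285.3 and 65.0 CPM in the Keap1 cKO library and 217.4 and 44.1 CPM in the control library. The remaining high genes were P2ry14, a receptor for UDP-sugars, with log2 ratios of 2.31 in the Keap1 cKO and 1.90 in the control library, Hmcn2, a hemicentin, with 3.85 and 1.90, and Col4a5, a type IV collagen chain, with 1.83 and 1.83.

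The genes lowest in cluster 1 against cluster 5 had log2 ratios between -1.16 and -2.68, given here for the Keap1 cKO library and then the control library. Dact2, a regulator of Wnt and TGF-beta signalling, had 14.7 CPM in cluster 1 and 64.6 CPM in cluster 5 of the Keap1 cKO library, and 14.0 and 89.5 CPM in the control library. Efhd1, a calcium-binding mitochondrial protein, had 52.6 and 144.7 CPM in the Keap1 cKO library and 39.8 and 175.6 CPM in the control library. Bmp6, a bone morphogenetic protein, had log2 ratios of -1.31 in the Keap1 cKO and -2.22 in the control library, and Ntn4, a netrin, had -1.18 and -1.85. Ccl7, a monocyte-attracting chemokine, had -1.40 and -2.30, and Ackr2, a scavenger receptor of chemokines, had -1.36 and -1.44. The last 4 were Ildr2 (-1.45 and -1.59), Duoxa1, the maturation factor of a dual oxidase (-1.29 and -2.05), Suox, sulfite oxidase (-1.18 and -1.59), and Prss23, a secreted serine protease (-1.16 and -1.65).

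Lists of known fibroblast types, chosen with earlier results of these data known, describe cluster 1 relative to cluster 5. Members at least 1.5-fold apart in the same direction in both libraries are counted here, which held for 4.35% of 10315 genes upward in cluster 1 and 1.33% downward. Of 22 genes of adventitial, Pi16-expressing fibroblasts, 0 were higher and 10 lower in cluster 1, with a median log2 ratio of -0.56 in the Keap1 cKO and -0.68 in the control library. Sema3c, a semaphorin, had -0.90 in the Keap1 cKO and -1.12 in the control library. Of 10 measured genes of fibroblasts marked by Col15a1 and Penk, 6 were higher and 0 lower, with medians of 1.18 in the Keap1 cKO and 1.47 in the control library. Penk, the enkephalin precursor, had log2 ratios of 2.34 in the Keap1 cKO and 2.37 in the control library, and Cxcl12, a chemokine that retains leukocytes, had 1.59 and 1.65 in the same order. Within cluster 1 itself the 22 adventitial genes summed to 17573.6 CPM in the Keap1 cKO and 17518.7 CPM in the control library. The 11 genes of the Col15a1 and Penk list summed to 1699.9 and 1635.9 CPM in the same order. The ratios therefore do not place cluster 1 outside the adventitial type. In both libraries growth factors and receptors had 13 of 35 members higher and 1 lower, complement genes had 9 of 20 higher and 1 lower, and basement membrane and network collagens had 5 of 11 higher and 0 lower. The fibrillar collagens had 0 of 7 members higher and 0 lower, with medians of -0.08 in the Keap1 cKO and -0.02 in the control library, so the collagens of thick fibrils did not set the 2 clusters apart at this fold.

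Turning to genotype, Keap1 cKO cells of cluster 1 had higher levels of elastin, lysyl oxidase, fibrillar collagens and the secreted protein Cthrc1 than control cells. They had lower levels of gelsolin, Penk and Lsamp. With a minimum of 100 UMIs in cluster 1 summed over the libraries, 8241 genes were compared, of which 262 (3.18%) were at least 2-fold higher and 309 (3.75%) at least 2-fold lower in the Keap1 cKO library. Ratios are given as the log2 of Keap1 cKO over control, so a positive value means higher in the Keap1 cKO library. Ratios in cluster 5 are set beside them as that cluster's own values; they come from the same pair of libraries and are no independent repeat. For lists, members with at least 20 UMIs were counted at 1.5-fold; over all 11522 such genes in cluster 1, 13.9% were higher and 16.1% lower with a median log2 ratio of -0.05, and in cluster 5 13.2% of 10549 were higher and 18.2% lower with a median of -0.09.

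Elastin stood out among the abundant genes. Eln (chromosome 5, 134702593 to 134747323, minus strand, mm10), the protein of elastic recoil, had 2751.4 CPM (2690.8 to 2812.9) in the Keap1 cKO library and 200.6 CPM (190.0 to 211.7) in the control library, a 13.7-fold ratio (log2 3.78, 3.69 to 3.86). In cluster 5 its log2 ratio was 4.21. Thinned to equal depth, Eln was seen in 92.8% of Keap1 cKO cells and 50.2% of control cells of cluster 1, beside 17.6% of Keap1 cKO and 1.31% of control red cells. Lox, lysyl oxidase, which cross-links elastin and collagen, had 569.5 CPM in the Keap1 cKO library and 57.4 CPM in the control library (log2 3.31; 4.58 in cluster 5). It was seen in 90.2% of Keap1 cKO and 31.0% of control cells. Fbn2, the fibrillin prominent in developing tissue, had 41.7 CPM in Keap1 cKO and 5.28 CPM in control cells (2.98), and Fbn1 had 3644.4 CPM in Keap1 cKO and 1589.3 CPM in control cells (1.20). Other proteins of the elastic fibre had the opposite sign: Ltbp4 had 703.8 CPM in Keap1 cKO and 1671.4 CPM in control cells (-1.25), and Fbln1, fibulin 1, had 498.7 CPM in Keap1 cKO and 1009.3 CPM in control cells (-1.02). Of 17 elastic fibre and microfibril genes 8 were higher and 4 lower, with a median of 0.54 in cluster 1 and 0.41 in cluster 5.

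All 7 measured fibrillar collagens were at least 1.5-fold higher in the Keap1 cKO library, with a median log2 ratio of 1.21 in cluster 1 and 1.18 in cluster 5, where all 7 were also higher. Col3a1 had 24304.5 CPM in the Keap1 cKO library and 10477.2 CPM in the control library (1.21), Col1a1 had 13008.1 CPM in Keap1 cKO and 5315.8 CPM in control cells (1.29), and Col5a2 had 2787.5 CPM in Keap1 cKO and 921.7 CPM in control cells (1.60). The difference was not made by a few cells: Col1a1 had a median of 127.8 UMIs per 10000 in thinned Keap1 cKO cells and 47.8 in control cells. Col12a1, a fibril-associated collagen, had 517.3 CPM in Keap1 cKO and 101.0 CPM in control cells (2.36), the only one of its 3 measured relatives past 1.5-fold. Basement membrane and network collagens were divided, with 4 higher and 3 lower of 12 and a median of 0.02. Among them Col8a1 had 1414.2 CPM in Keap1 cKO and 452.9 CPM in control cells (1.64), Col4a1 had 538.4 CPM in Keap1 cKO and 188.0 CPM in control cells (1.52), and Col6a6 had 4.21 CPM in Keap1 cKO and 27.3 CPM in control cells (-2.70). Of 9 laminins and related genes 1 was higher and 3 lower (median -0.00); the 1 was Hspg2, perlecan, with 869.6 CPM in Keap1 cKO and 328.0 CPM in control cells (1.41).

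Enzymes that fold and cross-link collagen had 14 of 28 members higher and 4 lower, with a median of 0.59. P4ha3, a collagen prolyl hydroxylase subunit, had 139.1 CPM in the Keap1 cKO library and 27.6 CPM in the control library (2.33), and Loxl1 had 1353.6 CPM in Keap1 cKO and 609.2 CPM in control cells (1.15). Pcolce2, an enhancer of procollagen trimming, had 443.4 CPM in Keap1 cKO and 1241.3 CPM in control cells (-1.49). The small leucine-rich proteoglycans, which bind collagen fibrils, had 6 of 10 higher and 1 lower (median 0.70): Bgn, biglycan, had 3116.6 CPM in Keap1 cKO and 1207.0 CPM in control cells (1.37), while Dcn, decorin, had 9781.5 CPM in Keap1 cKO and 13199.4 CPM in control cells (-0.43). Proteases and their inhibitors had 9 of 26 higher and 3 lower, with a median of 0.15. Timp1, an inhibitor of metalloproteinases, had 208.9 CPM in the Keap1 cKO library and 25.9 CPM in the control library (3.01) and was seen in 64.7% of Keap1 cKO and 17.6% of control cells at equal depth. Adam12, a metalloproteinase, had 49.1 CPM in Keap1 cKO and 4.52 CPM in control cells (3.44).

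**Figure D2:**
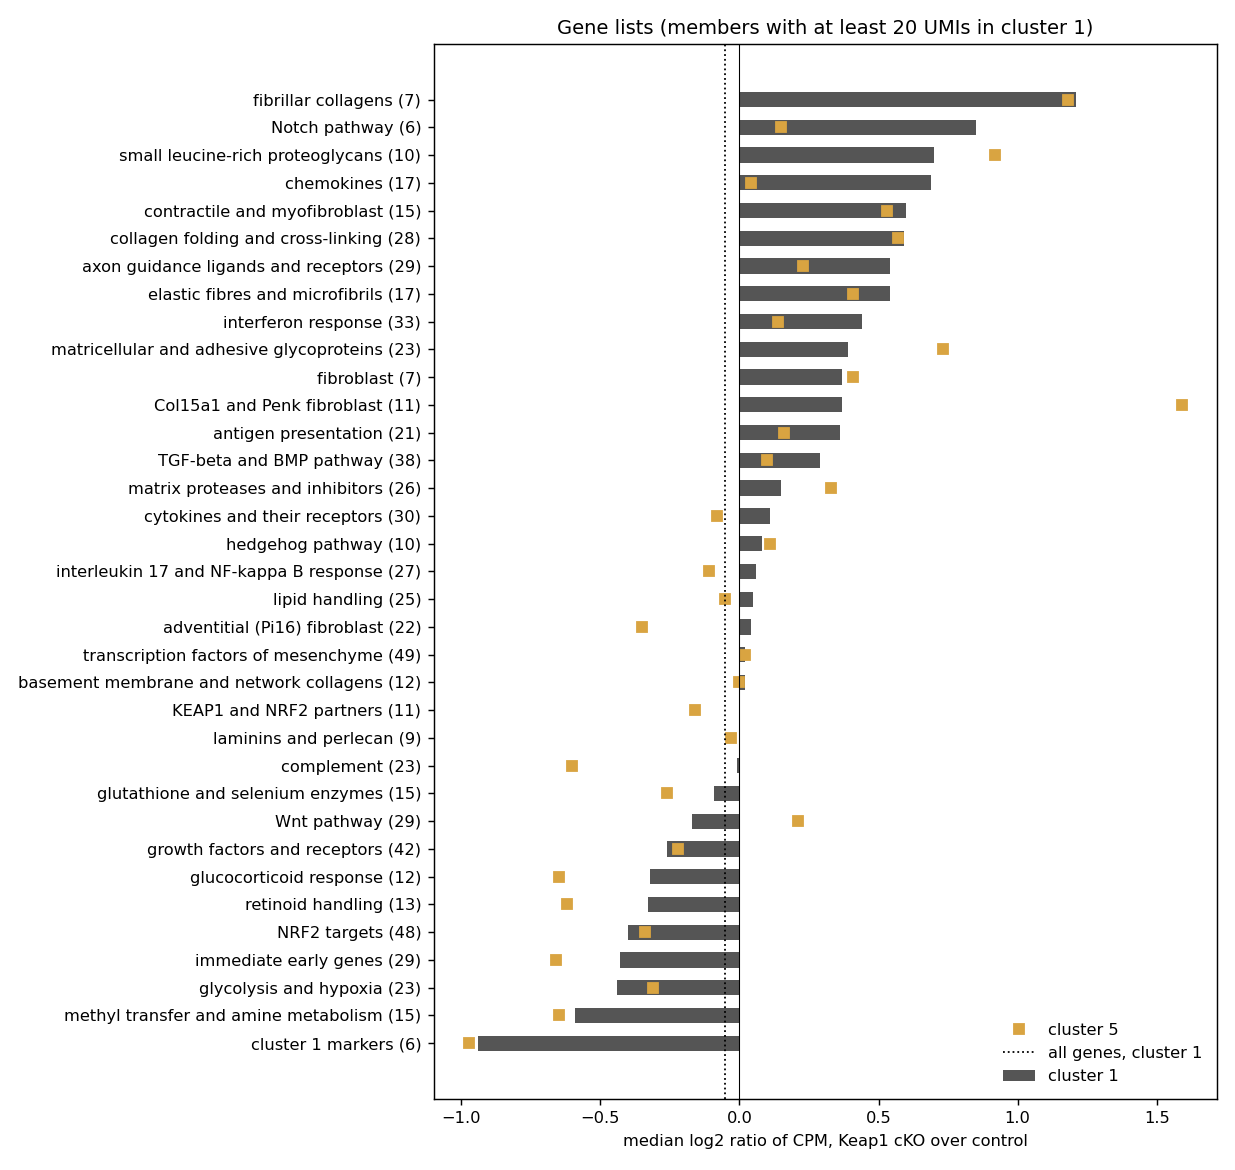
Median log2 ratio, Keap1 cKO over control, of the gene lists in cluster 1 (bars) and cluster 5 (squares), over members with at least 20 UMIs. Lists for other cell types and the fibril-associated collagens, with 3 measured members, are not plotted. The dotted line is the median of all genes in cluster 1, -0.05. Of the lists plotted, fibrillar collagens lie farthest to the right at 1.21 in cluster 1. The cluster 1 markers lie farthest to the left at -0.94, and the methyl transfer list is at -0.59. In cluster 5 the Col15a1 and Penk list lies farthest to the right at 1.59.

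The matricellular and adhesive glycoproteins had 11 of 23 members higher and 3 lower (median 0.39; 0.73 in cluster 5). The CCN proteins, secreted regulators of matrix and growth factors, led this list. Ccn5 had 297.2 CPM in the Keap1 cKO library and 26.1 CPM in the control library (3.51), and in cluster 5 it had 104.0 CPM in Keap1 cKO and 1.58 CPM in control cells. Ccn2, connective tissue growth factor, had 962.4 CPM in Keap1 cKO and 162.5 CPM in control cells (2.57), Ccn3 had 1110.7 CPM in Keap1 cKO and 235.0 CPM in control cells (2.24), and Ccn4 had 28.4 CPM in Keap1 cKO and 2.41 CPM in control cells (3.56). Ccn1, the remaining well-measured member of that family, did not differ by 1.5-fold, with 96.4 CPM in Keap1 cKO and 105.2 CPM in control cells. Fn1, fibronectin, had 6389.5 CPM in Keap1 cKO and 3003.1 CPM in control cells (1.09). Contractile and myofibroblast genes had 8 of 15 higher and 1 lower (median 0.60; 0.53 in cluster 5). Actn1, which bundles actin, had 58.9 CPM in Keap1 cKO and 5.28 CPM in control cells (3.48), Tagln, transgelin, had 38.9 CPM in Keap1 cKO and 3.62 CPM in control cells (3.43), and Acta2, smooth muscle actin, had 26.3 CPM in Keap1 cKO and 2.56 CPM in control cells (3.36). Myl9 was the exception, with 32.2 CPM in Keap1 cKO and 64.1 CPM in control cells (-0.99). Of the smooth muscle and pericyte markers, 3 had at least 20 UMIs in cluster 1, with a median of 0.37. Of these 3, Acta2 was the 1 higher by 1.5-fold, and 0 were lower. Over 2 UMIs of the whole marker list were held by 11 of 187 Keap1 cKO and 2 of 545 control cells. The part of such cells in the ratios of contractile genes was not tested. Cnn1 was at 0 UMIs in the Keap1 cKO cells and Rgs5 at 0 in the control cells of cluster 1.

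Cthrc1 (chromosome 15, 39076932 to 39087121, plus strand), a secreted glycoprotein known from activated fibroblasts, had the largest ratio of the ranked genes other than Saa3. It had 935.1 CPM (900.0 to 971.3) in the Keap1 cKO library and 21.6 CPM (18.2 to 25.4) in the control library, 43.4-fold apart (log2 5.44; 5.51 in cluster 5). At equal depth it was seen in 84.3% of Keap1 cKO cells and 12.4% of control cells of cluster 1, and in 0 of 91 Keap1 cKO and 0 of 153 control red cells. C1qtnf3, a secreted relative of complement C1q, had 153.9 CPM in Keap1 cKO and 6.78 CPM in control cells (4.50). Dio2, which activates thyroid hormone, had 213.1 CPM in Keap1 cKO and 20.3 CPM in control cells (3.39; 1.96 in cluster 5), and Tnfrsf11b, osteoprotegerin, had 74.0 CPM in Keap1 cKO and 8.89 CPM in control cells (3.06). S100g, a calcium-binding protein, had 207.1 CPM in Keap1 cKO cells and was rare in control cells, with 73 UMIs in all (4.23); 30.1% of the Keap1 cKO UMIs came from 1 cell, and without the top cell of each library the ratio was 3.91. Igfbp5, which binds insulin-like growth factors, had 539.4 CPM in Keap1 cKO and 59.1 CPM in control cells (3.19), against 1079.5 CPM in Keap1 cKO and 624.1 CPM in control cells of cluster 5 (0.79). Its UMIs lay in 20.9% of thinned Keap1 cKO cells and 12.4% of control cells, 20.3% of the Keap1 cKO UMIs came from 1 cell, and the ratio was 2.39 without cells that had over 2 UMIs of T cell, myeloid or endothelial markers.

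**Figure D3:**
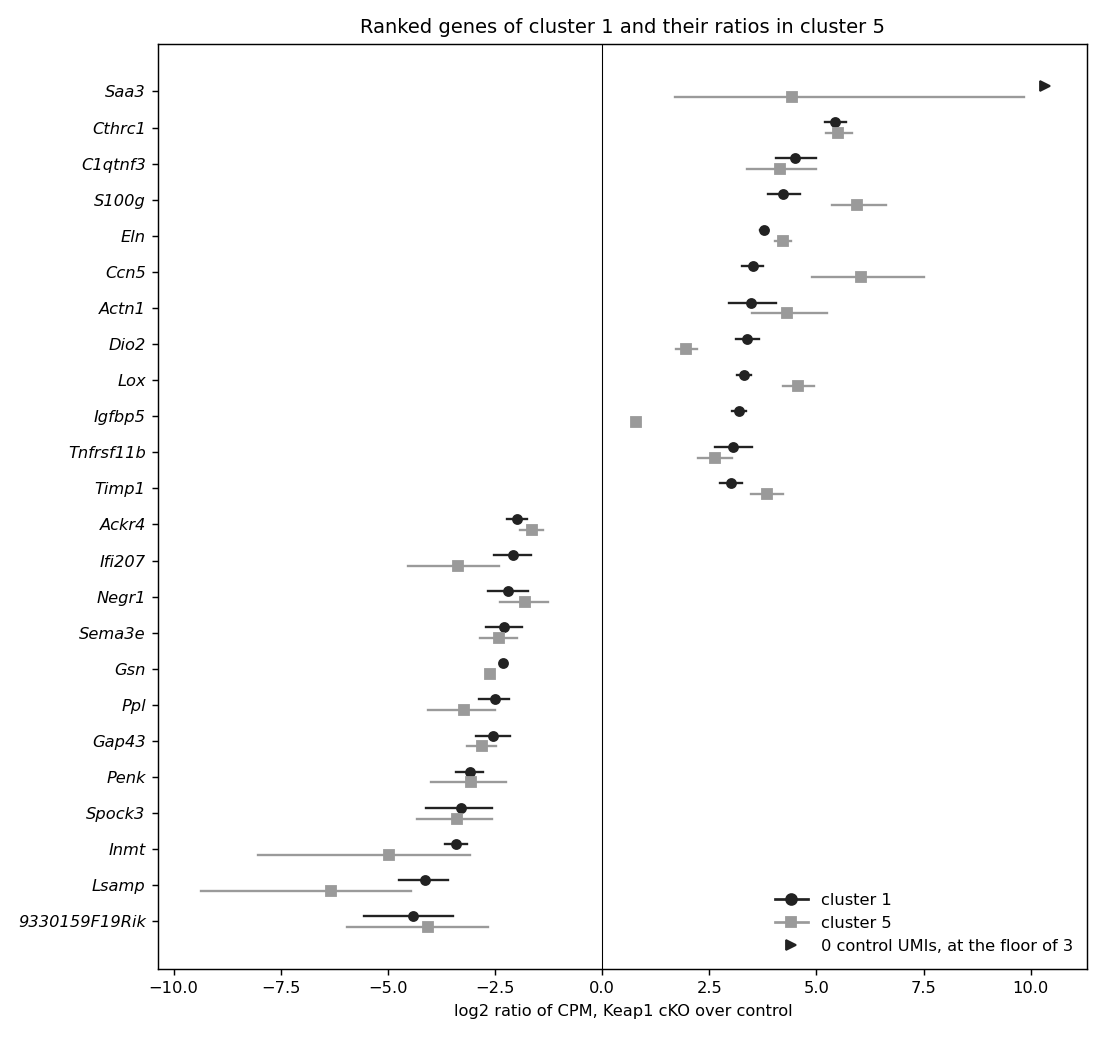
Log2 ratios, Keap1 cKO over control, of the 12 highest and 12 lowest genes in cluster 1 (circles) with cluster 5 beside them (squares); bars are 95% counting intervals and an arrow marks a ratio against a floor of 3 UMIs. Cthrc1 is at 5.44 and 5.51 in the 2 clusters, and Igfbp5 at 3.19 and 0.79.

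Saa3 (chromosome 7, 46711998 to 46715700, minus strand), an acute-phase serum amyloid A protein, had 1676 UMIs (587.4 CPM) in Keap1 cKO cells and 0 UMIs in control cells of cluster 1. Against a floor of 3 UMIs over the control group, it was at least 1299-fold higher in the Keap1 cKO library. Most of this signal sat in few cells: 51.2% of the UMIs came from 1 cell, 34 of 187 cells had any, and without the top cell the bound was 9.31 on the log2 scale. Without the cells that had over 2 UMIs of T cell, myeloid or endothelial markers the bound was 7.75. At equal depth Saa3 was seen in 15.7% of Keap1 cKO cells and in 0 of 442 control cells, which allows a share of cells with a UMI of up to 0.679% (3 cells; exact upper bound 0.831%), and in 6.59% of Keap1 cKO red cells and 9.03% of Keap1 cKO T cells of cluster 3. Serum amyloid genes are similar to each other, so reads may be divided among them. Lcn2, lipocalin 2, another acute-phase protein, had 19.6 CPM in Keap1 cKO and 0.603 CPM in control cells (5.02).

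Upstream sequences of 3 genes that were higher in the Keap1 cKO library are shown, from RefSeq on GRCm38.p6, for the acute-phase gene Saa3 (chr7:46715701-46715926, minus strand), the protease inhibitor gene Timp1 (chrX:20869916-20870165, plus strand) and the abundant fibrillar collagen gene Col3a1 (chr1:45311288-45311537, plus strand). They are printed 5′ to 3′ with matches in capitals, and positions are counted back from the RefSeq start. The Timp1 and Col3a1 runs end at the base before that start, and the Saa3 run ends 24 bases earlier, since those bases fall in a GENCODE exon.
Saa3: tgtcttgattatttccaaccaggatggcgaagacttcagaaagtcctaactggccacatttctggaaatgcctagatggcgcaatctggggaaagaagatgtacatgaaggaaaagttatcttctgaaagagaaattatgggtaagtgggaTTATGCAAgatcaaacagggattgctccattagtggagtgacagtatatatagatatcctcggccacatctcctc
Timp1: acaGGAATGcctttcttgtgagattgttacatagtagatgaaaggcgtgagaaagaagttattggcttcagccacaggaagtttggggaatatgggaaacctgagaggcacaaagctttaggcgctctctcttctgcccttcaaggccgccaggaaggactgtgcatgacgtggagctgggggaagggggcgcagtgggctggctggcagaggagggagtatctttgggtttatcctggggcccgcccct
Col3a1: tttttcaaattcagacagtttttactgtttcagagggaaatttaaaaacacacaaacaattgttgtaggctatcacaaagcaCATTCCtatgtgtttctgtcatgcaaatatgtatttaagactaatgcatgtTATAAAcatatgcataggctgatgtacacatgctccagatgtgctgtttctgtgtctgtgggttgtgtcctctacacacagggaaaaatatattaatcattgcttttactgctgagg
The motifs searched on both strands were TTNNGCAA for C/EBP, TGANTCA for AP-1, CATTCC for TEAD, TGACNNNGC for the antioxidant response element that NRF2 binds, and TATAAA. They occur in 9.57%, 6.73%, 12.6%, 10.2% and 12.3% of the 32536 RefSeq windows, in that order. Saa3 held a C/EBP match, TTATGCAA, 99 to 92 bases before the RefSeq start. Timp1 held GGAATG, the TEAD letters on the other strand, 247 to 242 bases before it, and Col3a1 held CATTCC at 168 to 163 and TATAAA at 117 to 112. No match to the antioxidant response element lay in any of the 5 sequences shown, and a match or its lack is a description of the letters only.

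At the other end of the ranking stood gelsolin, the most abundant gene to differ. Gsn (chromosome 2, 35256380 to 35307892, plus strand) severs actin filaments and also circulates in plasma. It had 5923.0 CPM (5834.0 to 6012.9) in the Keap1 cKO library and 29429.3 CPM (29299.0 to 29560.2) in the control library, 4.97-fold lower in the Keap1 cKO library (log2 -2.31; -2.62 in cluster 5). All thinned cells of cluster 1 had Gsn UMIs, but their levels hardly overlapped: the 90th percentile of Keap1 cKO cells was 122.9 UMIs per 10000 and the 10th percentile of control cells was 180.0. Red cells held 0.258 Gsn UMIs each in the Keap1 cKO library and 4.17 in the control library, and with the red cell profile taken off every cell of cluster 1 the ratio was still -2.31.

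The genes with the lowest ratios include adhesion proteins and a peptide precursor first described in the nervous system. Lsamp, a cell adhesion protein of the limbic system, had 9.46 CPM in the Keap1 cKO library and 166.9 CPM in the control library (-4.14; -6.32 in cluster 5) and was seen in 5.23% of Keap1 cKO cells and 67.6% of control cells at equal depth. Penk had 29.1 CPM in Keap1 cKO and 247.3 CPM in control cells (-3.09) and was seen in 16.3% of Keap1 cKO and 65.4% of control cells. Negr1, an adhesion protein related to Lsamp, had 15.4 CPM in Keap1 cKO and 70.4 CPM in control cells (-2.19), and Gap43, a protein of growing axons, had 20.7 CPM in Keap1 cKO and 120.3 CPM in control cells (-2.54). Spock3, a secreted proteoglycan, had 5.61 CPM in Keap1 cKO and 55.2 CPM in control cells (-3.30), and Sema3e, a semaphorin, had 17.9 CPM in Keap1 cKO and 86.5 CPM in control cells (-2.28). Ackr4, which scavenges the chemokines CCL19 and CCL21, had 63.4 CPM in Keap1 cKO and 249.6 CPM in control cells (-1.98), and Ppl, periplakin, had 26.6 CPM in Keap1 cKO and 151.8 CPM in control cells (-2.51). Ifi207, of an interferon-inducible family whose members resemble each other, had 17.9 CPM in Keap1 cKO and 75.2 CPM in control cells (-2.07), and the RIKEN gene 9330159F19Rik had 3.15 CPM in Keap1 cKO and 67.1 CPM in control cells (-4.41).

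The markers that define the cluster differed between the libraries as well, and are described without being read as an effect of genotype. Inmt was 10.6-fold lower in the Keap1 cKO library (log2 -3.40, -3.66 to -3.16; -4.97 in cluster 5), Angptl1 had a log2 ratio of -1.40, Sfrp4 -1.13 and Fibin -0.76. Cilp had 0.15 (0.03 to 0.28) and Mfap4 0.85. General fibroblast genes were present in both libraries: Pdgfra, the receptor used to identify fibroblasts, had 301.8 CPM in the Keap1 cKO library and 358.4 CPM in the control library (-0.25).

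**Figure D4:**
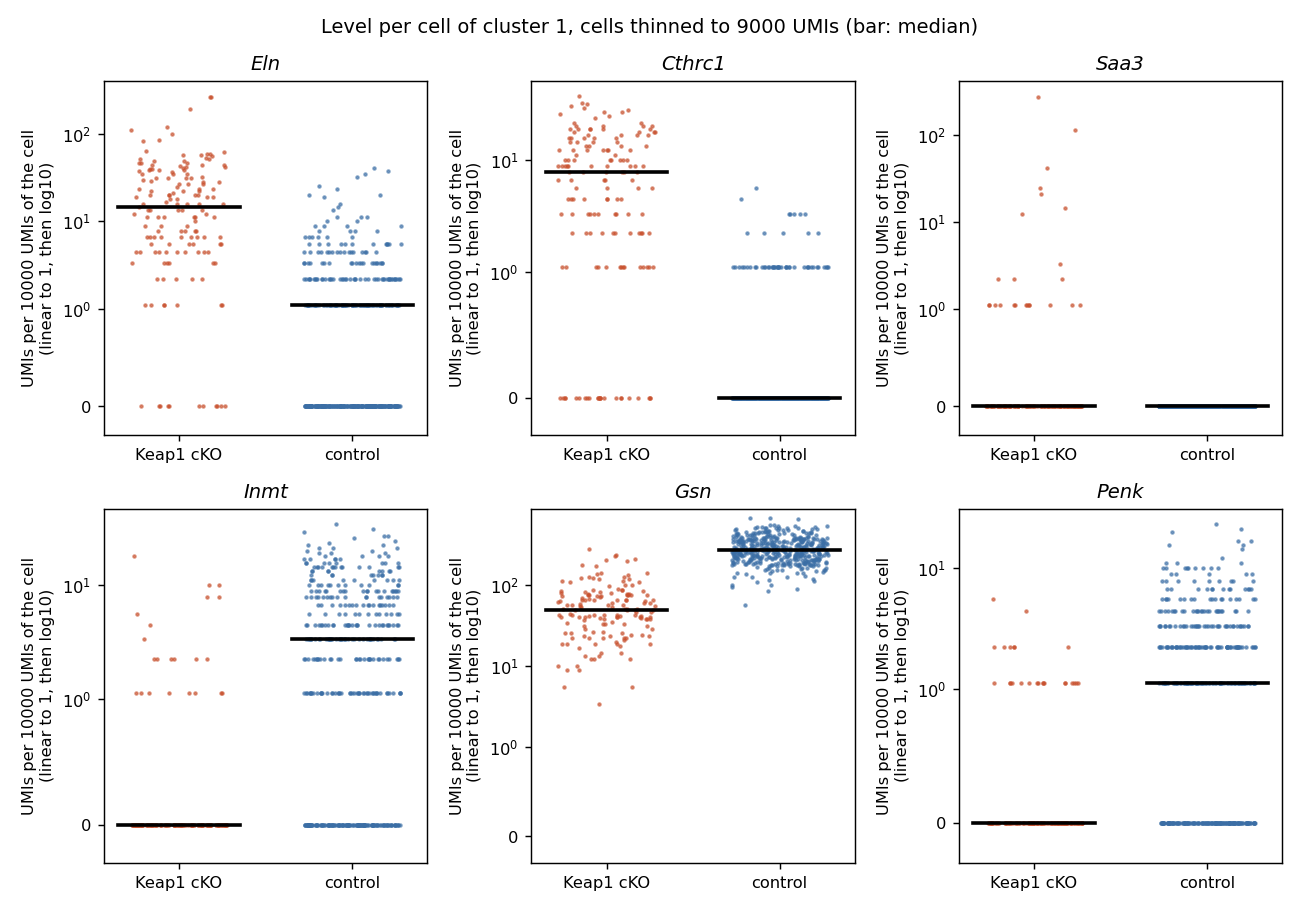
UMIs per cell of Eln, Cthrc1, Saa3, Inmt, Gsn and Penk in cells of cluster 1 thinned to 9000 UMIs (153 Keap1 cKO cells left, 442 control cells right; vertical axis linear near 0 and logarithmic above, bar at the median). Gsn separates most of the cells of the 2 libraries, whereas Saa3 is at 0 in all control cells and in most Keap1 cKO cells.

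Immune genes did not move as a block, and RNA of immune cells was itself unequal in the libraries. Of 17 chemokine genes 9 were higher and 4 lower in cluster 1 (median 0.69; 0.04 in cluster 5), with Cxcl12 at 113.6 CPM in Keap1 cKO and 37.2 CPM in control cells (1.61) and Ccl11, eotaxin, at 37.9 CPM in Keap1 cKO and 133.4 CPM in control cells (-1.82). Of 27 genes of the interleukin 17 and NF-kappa B response 10 were higher and 5 lower (median 0.06). Besides Saa3 and Lcn2 they include Cebpd, a transcription factor of acute-phase genes, with 278.3 CPM in Keap1 cKO and 1034.9 CPM in control cells (-1.89). Cytokines and their receptors had 9 of 30 higher and 4 lower (median 0.11). Complement genes had 6 of 23 higher and 6 lower (median -0.01; -0.60 in cluster 5). Within complement, Cfb, factor B, had 387.3 CPM in Keap1 cKO and 95.3 CPM in control cells (2.02), and C4b had 677.8 CPM in Keap1 cKO and 256.1 CPM in control cells (1.40), while C3, the central component, had 1555.5 CPM in Keap1 cKO and 2190.1 CPM in control cells (-0.49).

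Interferon response genes had 14 of 33 members higher and 5 lower (median 0.44; 0.14 in cluster 5). Isg15, a ubiquitin-like protein induced by interferon, had 50.1 CPM in the Keap1 cKO library and 13.7 CPM in the control library (1.87), and Irf7 had 40.7 CPM in Keap1 cKO and 10.1 CPM in control cells (2.01). Ifitm3, which restricts viral entry, had 954.7 CPM in Keap1 cKO and 1621.7 CPM in control cells (-0.76). Antigen presentation genes had 8 of 21 higher and 1 lower (median 0.36), and H2-Aa, a class II chain, had 60.3 CPM in Keap1 cKO and 13.6 CPM in control cells (2.15). Beside these, markers of other cells also differed in cluster 1: 6 myeloid markers, which include the class II partner Cd74, summed to 183.0 CPM in Keap1 cKO and 79.1 CPM in control cells, and 6 T cell markers to 134.2 CPM in Keap1 cKO and 45.8 CPM in control cells. Of 5 neutrophil markers the sum was 215.6 CPM in Keap1 cKO and 1.36 CPM in control cells, with Cxcr2 at 0 in the Keap1 cKO cells. S100a8, the most abundant of them, was seen in 63.4% of Keap1 cKO and 0.452% of control cells of cluster 1 and in 59.3% of Keap1 cKO and 0.654% of control red cells. Without the cells that had over 2 UMIs of T cell, myeloid or endothelial markers, which left 119 Keap1 cKO and 497 control cells, the medians were 0.69 for chemokines, 0.25 for interferon response and 0.31 for antigen presentation. With each cell thinned they were 0.28, 0.21 and 0.24, and without the cell with the most UMIs of each gene 0.19, 0.39 and 0.37, in the same order of lists. The remaining part of other cells' RNA in these ratios was not tested.

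Keap1 RNA in cluster 1 was at about the same level in the libraries. The gene (chromosome 9, 21229730 to 21239361, minus strand) had 56.1 CPM in the Keap1 cKO library and 57.6 CPM in the control library (log2 -0.04, -0.31 to 0.23; -0.48 in cluster 5) and was seen in 40.5% of cells of both libraries at equal depth. Which exons the floxB allele loses is not given in the sources, and 3′ counts may lie outside them, so these values are no check of deletion. Nfe2l2 had 132.5 CPM in Keap1 cKO and 227.6 CPM in control cells (-0.78). Of 48 NRF2 target genes 5 were higher and 16 lower (median -0.40; -0.34 in cluster 5). Ftl1, ferritin light chain, had 1101.9 CPM in Keap1 cKO and 2630.7 CPM in control cells (-1.26), and Fth1, its heavy chain, had 1965.9 CPM in Keap1 cKO and 3599.9 CPM in control cells (-0.87). Gstm1, a glutathione transferase of a family of similar genes, had 255.2 CPM in Keap1 cKO and 662.5 CPM in control cells (-1.38), and Ces1d, a carboxylesterase, had 18.6 CPM in Keap1 cKO and 62.4 CPM in control cells (-1.75). Gsta4, a transferase that clears lipid aldehydes, went the other way with 54.7 and 26.5 CPM (1.04), and Nqo1, a quinone reductase often used to read NRF2 activity, was sparse at 6.31 CPM in Keap1 cKO and 5.28 CPM in control cells. The partners of KEAP1 and NRF2 had 1 of 11 higher and 1 lower (median 0.00), and glutathione and selenium enzymes had 3 of 15 higher and 2 lower (median -0.09), with Gpx3, a secreted glutathione peroxidase, at 92.9 CPM in Keap1 cKO and 13.0 CPM in control cells (2.84).

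Metabolic and stress lists other than lipid handling had medians below the -0.05 of all genes. Methyl transfer and amine metabolism, the list that holds Inmt, had 3 of 15 members higher and 8 lower (median -0.59), with Cyp1b1 at 95.3 CPM in Keap1 cKO and 16.7 CPM in control cells (2.51) against the trend and Sult1a1, a sulfotransferase, at 15.8 CPM in Keap1 cKO and 56.1 CPM in control cells (-1.83). Retinoid handling had 3 of 13 higher and 5 lower (median -0.33), and Adh1, an alcohol dehydrogenase that oxidises retinol, had 39.6 CPM in Keap1 cKO and 142.7 CPM in control cells (-1.85; -4.12 in cluster 5). Lipid handling was divided, with 8 of 25 higher and 5 lower (median 0.05): Fabp5, a fatty acid carrier, had 509.6 CPM in Keap1 cKO and 149.5 CPM in control cells (1.77), and Abca8a, a lipid transporter, had 158.4 CPM in Keap1 cKO and 433.0 CPM in control cells (-1.45). Glycolysis and hypoxia genes had 1 of 23 higher and 7 lower (median -0.44), and glucocorticoid response genes 1 of 12 higher and 3 lower (median -0.32). Immediate early genes, which are induced within minutes by stress and also by tissue dissociation, had 1 of 29 higher and 13 lower (median -0.43; -0.66 in cluster 5). Egr1 had 266.0 CPM in Keap1 cKO and 626.7 CPM in control cells (-1.24), and Fos had 346.3 CPM in Keap1 cKO and 702.4 CPM in control cells (-1.02). This list was uneven among control cells, with a 90th percentile of 97.6 UMIs per 10000 in Keap1 cKO cells and 190.0 in control cells beside medians of 54.4 in Keap1 cKO and 62.2 in control cells, and how far handling set it was not tested.

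Signalling lists went in different directions, beside 13.9% higher and 16.1% lower over all genes with at least 20 UMIs. Of 38 TGF-beta and BMP genes 13 were higher and 5 lower (median 0.29; 0.10 in cluster 5). Grem1, a BMP antagonist, had 123 UMIs (43.1 CPM) in Keap1 cKO cells and 0 in control cells, a bound of 6.57 on the log2 scale, with 48.0% of the UMIs in 1 cell. Id1, a target of BMP signals, had 34.0 CPM in Keap1 cKO and 7.39 CPM in control cells (2.20), and Bmp2 had 5.61 CPM in Keap1 cKO and 24.4 CPM in control cells (-2.12). The Wnt pathway had 7 of 29 higher and 8 lower (median -0.17; 0.21 in cluster 5): Wnt9a had 47.0 CPM in Keap1 cKO and 18.1 CPM in control cells (1.38), Wnt11 had 9.11 CPM in Keap1 cKO and 38.4 CPM in control cells (-2.08), and the antagonist Dkk2 had 240.4 CPM in Keap1 cKO and 510.7 CPM in control cells (-1.09). Growth factors and receptors had 7 of 42 higher and 15 lower (median -0.26), with Kitl, the ligand of KIT, at 18.2 CPM in Keap1 cKO and 49.6 CPM in control cells (-1.44). Hedgehog genes had 3 of 10 higher and 1 lower (median 0.08), the 1 being the inhibitor Hhip at 3.50 CPM in Keap1 cKO and 25.6 CPM in control cells (-2.87). Notch genes had 4 of 6 higher and 1 lower (median 0.85), and Hes1, a Notch target, had 58.9 CPM in Keap1 cKO and 27.3 CPM in control cells (1.11). Axon guidance genes had 14 of 29 higher and 3 lower (median 0.54, and 0.23 in cluster 5). Their median in cluster 1 was 0.26 without cells that had over 2 UMIs of T cell, myeloid or endothelial markers. The neurotrophin Bdnf led this list with 32.9 CPM in Keap1 cKO and 2.41 CPM in control cells (3.77). Gfra2, a receptor of the GDNF family, followed with 36.8 CPM in Keap1 cKO and 3.01 CPM in control cells (3.61).

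Mesenchymal transcription factors had 7 of 49 higher and 6 lower (median 0.02). These counts were near the 13.9% higher and 16.1% lower over all genes with at least 20 UMIs. The members farthest apart included Runx1, at 26.6 CPM in Keap1 cKO and 6.63 CPM in control cells (2.01). Tcf21 had 17.5 CPM in Keap1 cKO and 49.6 CPM in control cells (-1.50). The adventitial list had 5 of 22 higher and 6 lower (median 0.04), with Pi16 at 2490.9 CPM in Keap1 cKO and 1388.2 CPM in control cells (0.84). The Col15a1 and Penk list had 5 of 11 higher and 3 lower (median 0.37; 0.03 without the top cell of each gene), with Col4a2 at 309.1 CPM in Keap1 cKO and 102.6 CPM in control cells (1.59); its members Penk, Ndn and Sparcl1 were lower. The 7 general fibroblast genes had 3 higher and 0 lower (median 0.37), the 3 being the collagens Col1a1, Col1a2 and Col3a1.

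Cells of the cluster were not uniform within either library. A set of 55 genes of matrix assembly took a median of 772.2 UMIs per 10000 in thinned Keap1 cKO cells, with 423.6 at the 10th and 1044.7 at the 90th percentile, and a median of 380.6 in control cells, with 256.8 and 563.2. Above the 95th percentile of control cells, 612.1, lay 112 of 153 Keap1 cKO cells (73.2%), and 41 Keap1 cKO cells were within 20% of that level. Cluster 5 had the same order, with medians of 792.8 in Keap1 cKO and 392.2 in control cells. There 89 of 112 Keap1 cKO cells (79.5%) lay above the 95th percentile of its control cells, 603.1. Of single genes, Eln spanned 1.11 to 52.0 UMIs per 10000 between the 10th and 90th percentiles of Keap1 cKO cells and 0 to 4.44 in control cells. The NRF2 target set of 59 genes took a median of 61.1 UMIs per 10000 in Keap1 cKO cells and 105.6 in control cells, with 86.7 at the 90th percentile of the Keap1 cKO cells and 73.3 at the 10th percentile of the control cells. The ranges of both sets overlapped between the libraries. Both sets are sums of UMIs, in which abundant genes weigh most. The fibrillar collagens alone summed to 54626.2 CPM in Keap1 cKO and 23702.1 CPM in control cells of cluster 1. The whole NRF2 list summed to 6537.4 CPM in Keap1 cKO and 10816.4 CPM in control cells. The ferritin genes Fth1 and Ftl1, given above, held a large part of both sums of that list.

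**Figure D5:**
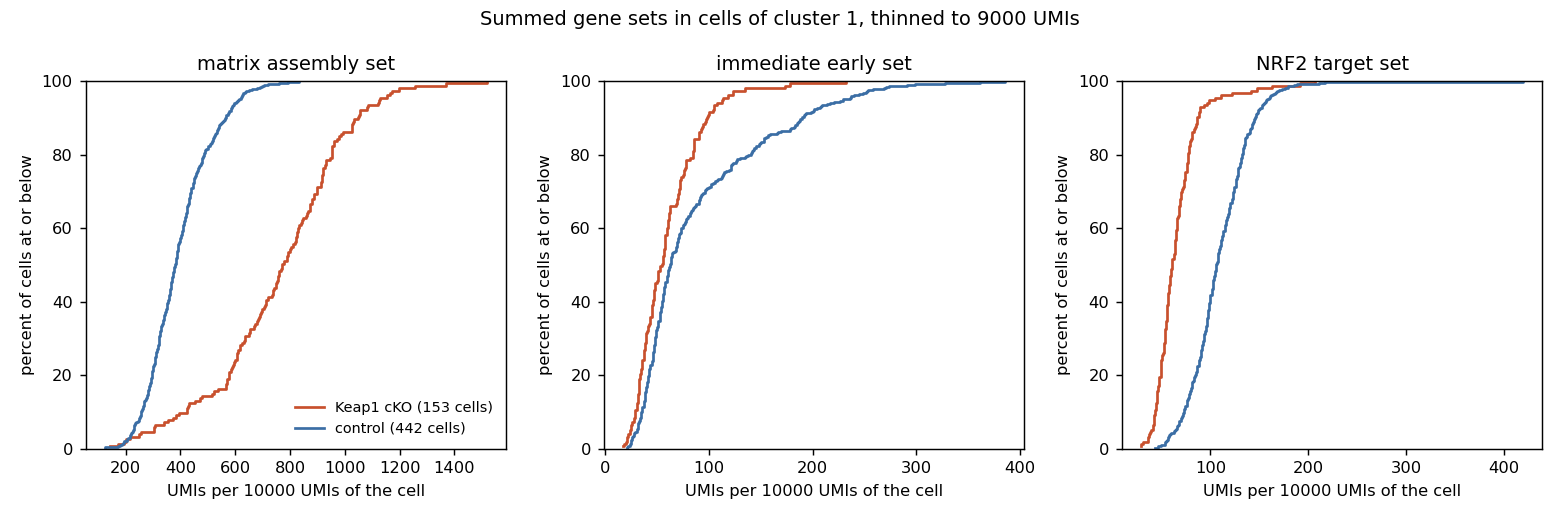
Cumulative share of cells of cluster 1 (vertical axis, percent) up to a given level of 3 gene sets (horizontal axis, UMIs per 10000, cells thinned to 9000 UMIs): matrix assembly, immediate early genes and NRF2 targets, with the Keap1 cKO library listed before the control library. The Keap1 cKO curve lies to the right for matrix assembly (medians 772.2 and 380.6) and to the left for NRF2 targets (61.1 and 105.6). Each set is a sum of UMIs, so its abundant genes weigh most.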

How the data were processed

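Esophagus without its muscle layer was digested with trypsin-EDTA, dispersed with gentleMACS and sequenced with the Chromium Next GEM 3′ kit, per the labels' protocols. The submitters' processing notes name mm10, Seurat 4.0.2, Cell Ranger 6.0.1 and R 4.1.1. The sources used here do not give the counting annotation, the deleted exons or when Cre was induced. Deposited values are natural log values of each cell's counts, scaled to 10000 with 1 added, as the values themselves show. UMI counts were recovered from the smallest step of each cell, and cluster numbers and cell types are text labels deposited by the authors. Doublets were not called here; cells with markers of other types were left out in alternatives.

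UMIs were summed per cluster and library and scaled to 1000000. Ratios carry exact conditional binomial, CPM exact Poisson and shares exact Clopper-Pearson intervals at 95%. The ratio code was run on simulated sums with counting error only, which cannot show how the intervals hold under spread between cells. A 0 was set to a floor of 3 UMIs over the group. There was 1 library per genotype, so differences describe libraries and not replicated conditions.

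The members and the 51 gene lists, 15 of them for other cell types, were chosen with earlier results of these data known. The result of 1 list of another cell type is not reported here. Named were the 6 markers; the 10 highest and 10 lowest genes against cluster 5, by the smaller ratio of the 2 libraries, with at least 100 UMIs in each; the 12 highest and 12 lowest genes by genotype, with at least 100 UMIs and 50 CPM in 1 library; the 2 most abundant and 2 most different members of each list; and Keap1, Nfe2l2, Nqo1, Pdgfra, Col1a1 and Dcn. Genes more than 10 times higher in another cell type were ranked apart, 3 per direction. Hemoglobins, receptor segments, mitochondrial and sex-linked genes stayed out of ranks. Other list members were added as examples after their values were seen, and some that the rule names are left out for length. Coordinates come from GENCODE vM21, which held 18323 of 18595 names (98.5%). Of 29 named markers and genotype genes, 19 had a RefSeq promoter entry. Bases within GENCODE exons were left off the printed sequences. Scripts ran in Python 3.11.15 with NumPy 2.4.6, SciPy 1.17.1, pandas 2.3.3 and matplotlib 3.10.9. Other scalings, filters, cell selections and a removal of free RNA were tried as alternatives.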

Additional observations from a re-analysis of the deposited data

Results flagged for a closer look

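Of the listed genes with at least 20 UMIs in each cluster, 5 had ratios of Keap1 cKO over control of at least 1.5-fold in opposite directions in clusters 1 and 5; the difference between the clusters was not tested. Ccl2, a monocyte-attracting chemokine, had 22.1 CPM in Keap1 cKO and 6.03 CPM in control cells of cluster 1 (log2 1.87, 1.28 to 2.48), and 46.0 CPM in Keap1 cKO and 156.1 CPM in control cells of cluster 5 (-1.76). In the control cells of cluster 1, 72.5% of its UMIs came from 1 cell. Tgfbi, a secreted adhesion protein induced by TGF-beta, had 80.6 CPM in Keap1 cKO and 221.0 CPM in control cells of cluster 1 (-1.45, -1.66 to -1.25), and 143.3 CPM in Keap1 cKO and 93.8 CPM in control cells of cluster 5 (0.61). Mt2, a metallothionein, had 375.4 CPM in Keap1 cKO and 238.8 CPM in control cells of cluster 1 (0.65, 0.54 to 0.77), and 159.3 CPM in Keap1 cKO and 264.1 CPM in control cells of cluster 5 (-0.73). Pdgfa, a ligand of the receptor PDGFRA, had 7.71 CPM in Keap1 cKO and 13.6 CPM in control cells of cluster 1 (-0.82), and 11.1 CPM in Keap1 cKO and 6.87 CPM in control cells of cluster 5 (0.69, with an interval of -0.16 to 1.54). Smpd3, a sphingomyelinase, rested on 14 UMIs in Keap1 cKO and 14 in control cells of cluster 1 (1.22, 0.04 to 2.40), and on 6 in Keap1 cKO and 31 in control cells of cluster 5 (-1.62).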

How the results depend on the processing

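No paired analysis was possible because there was 1 library per genotype, and no replicate could be left out for the same reason. The counts of genes at least 2-fold higher and lower in the Keap1 cKO library, 262 and 309, were 738 and 674 with at least 20 UMIs, 88 and 108 with at least 500 UMIs, and 766 and 1150 at a fold of 1.5. They were 14 and 23 without cells holding over 2 UMIs of keratinocyte, T cell, myeloid, endothelial or red cell markers, a filter that left 13 and 10 cells. Under the other alternatives they were between 192 and 314 higher and between 262 and 385 lower. With median-of-ratios scaling every log2 ratio shifted by 0.05. The counts against cluster 5, 53 and 16, were 187 and 32 with at least 20 UMIs, 14 and 3 with at least 500, and 148 and 74 at a fold of 1.5. The share of the library in cluster 1, 187 of 2381 Keap1 cKO cells (6.80% to 9.01%) and 545 of 2472 control cells (20.4% to 23.7%), was 9.55% and 33.6% outside the epithelial class and 9.26% and 26.4% among cells with at least 2000 UMIs, and 23.8% in the control library without red cells. In the filter that left 13 and 10 cells, 8 of 35 lists changed sign: chemokines (-0.75), elastic fibres (-0.39), interferon response (-0.61), antigen presentation (-0.31), cytokines (-0.89), Col15a1 and Penk (-0.75), Wnt (1.09) and immediate early genes (0.80). Of 16 genes with enough UMIs under it, 3 did: Mfap4 (-0.61), Sfrp4 (1.09) and Pdgfra (0.23). Reversed with the red cell profile taken off were Krt15 (0.53) and Retnla (0.62), both ranked apart as genes of other cells. The median of basement membrane and network collagens was -0.27 without the top cell of each gene. With thinned cells, the interleukin 17 list had a median of -0.08, the Wnt list 0.02 and Nqo1 a ratio of -0.54; with equal weight per cell, the hedgehog list had -0.04. The glutathione list had 0.05 with the red cell profile taken off, and the interleukin 17 list -0.02 without the top cell of each gene. Beyond the construction of each alternative, the cause was not tested. Depth limits the sparse genes, such as Nqo1 with 18 UMIs in Keap1 cKO and 35 in control cells.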

Other observations

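Genes that other cell types express far more strongly were ranked apart. The highest were S100a8, with 123.7 CPM in Keap1 cKO and 0.603 CPM in control cells of cluster 1 (log2 7.68), S100a9, with 90.1 and 0.603 CPM (7.22), and Slpi, a secreted protease inhibitor, with 70.8 and 3.92 CPM (4.18). Of the Slpi UMIs in Keap1 cKO cells, 41.1% came from 1 cell. The lowest were Krt15, a basal keratin, with 59.9 CPM in Keap1 cKO and 175.9 CPM in control cells (-1.55), Hist1h1e, a linker histone, with 22.4 and 53.2 CPM (-1.25), and Retnla, with 34.0 and 78.2 CPM (-1.20). Red cells held 0.350 Krt15 UMIs each in the Keap1 cKO library and 1.83 in the control library.

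Sums of the marker lists of other cell types in cluster 1 were highest for red cells and keratinocytes. Keratinocyte markers summed to 444.1 CPM in Keap1 cKO and 595.1 CPM in control cells, with over 2 UMIs in 153 of 187 Keap1 cKO and 497 of 545 control cells, and hemoglobins and Alas2 to 1506.8 CPM in Keap1 cKO and 1276.1 CPM in control cells. Blood endothelial markers summed to 23.5 CPM in Keap1 cKO and 13.0 CPM in control cells, lymphatic markers to 8.76 CPM in Keap1 cKO and 10.9 CPM in control cells, smooth muscle and pericyte markers to 40.0 CPM in Keap1 cKO and 14.8 CPM in control cells, and skeletal muscle markers to 42.4 CPM in Keap1 cKO and 24.3 CPM in control cells. Mesothelial markers reached 7.71 CPM in Keap1 cKO and 0 in control cells, mast cell markers 0.350 CPM in Keap1 cKO and 0 in control cells, markers of cartilage and tendon 12.3 CPM in Keap1 cKO and 11.2 CPM in control cells, and cycling genes 20.7 CPM in Keap1 cKO and 17.3 CPM in control cells. The 3 adipocyte markers were not among the genes analysed here.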
